A study of Cricetulus griseus with 24 samples.

Results

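The genes described here are Nolc1 and the nucleolar genes that make ribosomes with it. A list of 42 gene symbols was matched to the gene symbols of the count table, and 40 of them have a row among its 28037 genes. Npm1 and Utp15 have no row under these symbols and are not analysed here. The list was drawn up because Nolc1 was already known to be lower in the A1 cell line at both growth phases, and the question was whether the other nucleolar genes follow it.

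Messenger RNA was sequenced from 3 lines of Chinese hamster ovary (CHO) cells grown as suspension batch cultures and collected at exponential and at stationary phase. A0 is a clone that makes a monoclonal antibody. It came from the host DG44 by transfection with plasmids for the antibody chains. A1 is the progeny of A0 in which the transgenes were amplified with methotrexate, and it makes more antibody. CHO-S is a CHO line that makes no antibody and served as the negative control. The titles of its samples call it NDST, a name the labels do not explain, so whether this line was engineered is not known here. A0 and A1 are each 1 clone, so a difference between them cannot be told apart from a difference between clones. A0 was measured in 4 cultures at each phase, and A1 and CHO-S in 3 cultures each. The 8 exponential libraries of A0 carry 4 culture numbers, and the libraries of 1 culture were added together.

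The ribosome is built in the nucleolus. RNA polymerase I copies the ribosomal DNA there, small nucleolar RNAs bound to proteins guide the chemical marking of the new RNA, and large assemblies cut and fold it into the precursors of the small and the large subunit. Nolc1 (also called Nopp140) is a nucleolar phosphoprotein that binds and accompanies the particles of small nucleolar RNA. Fast-growing cells spend much of their transcription on this pathway.

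Between 6532373 and 14652646 reads were counted on genes in all libraries but 1. Stationary culture 1 of CHO-S had 1038026 and stands apart. Its 40 nucleolar genes together took 6362 CPM (counts scaled to a common library total, normalized by the trimmed mean of M-values, TMM), against 4164 and 4213 in the other stationary CHO-S cultures, so results on stationary CHO-S cells are given with and without it. The mean log2 CPM of these genes was 6.03 in it, against 6.07 and 6.06, so they were not higher on average on that scale. CHO cells have no agreed marker genes. Of 4 mesenchymal genes, Vim, Lgals1 and Fn1 were at 363 CPM or more in every culture and Col1a1 at 0.666 or less. Of the epithelial genes Krt8 was at 0.164 or less, Cdh1 at 1.23 or less and Epcam at 3.54 or less, highest in stationary A1. Ptprc and Cd74 of blood cells were at 0.629 or less, and of the granulosa genes Fshr was at 0 and Amh at 2.42 or less. Since CPM is a share of the messenger RNA of a culture, a lower share in each cell and fewer cells that express a gene cannot be told apart.

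**Figure D1:**
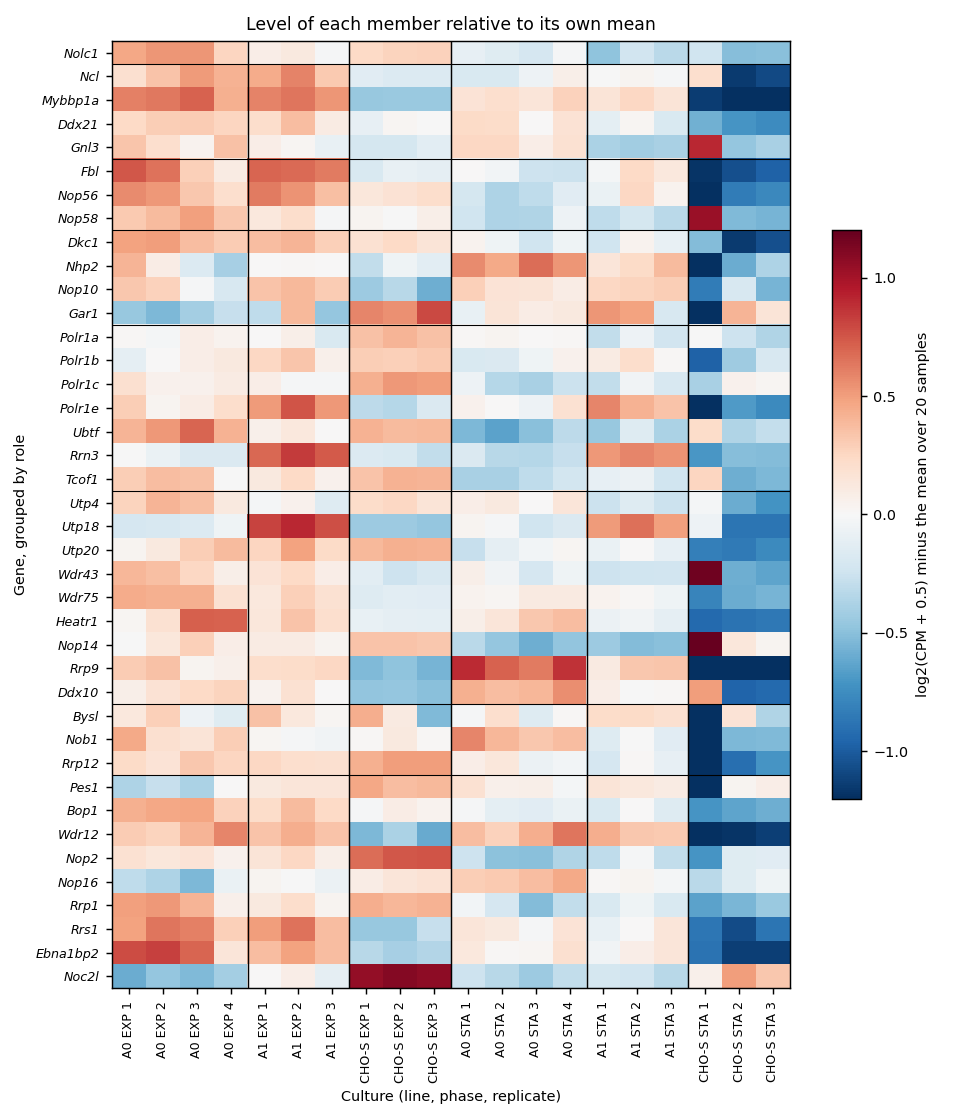
Each of the 40 nucleolar genes (rows, grouped by role) in each of the 20 cultures (columns), as log2(CPM + 0.5) minus the gene's mean over the cultures. The stationary columns are mostly bluer than the exponential ones of the same line, Utp18 and Rrn3 are red in both A1 blocks, and stationary culture 1 of CHO-S differs from the other stationary CHO-S cultures in many rows.

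Nolc1 (gene 100773818) had 513, 538, 538 and 444 CPM in the exponential A0 cultures and 393, 405 and 367 in the exponential A1 cultures. In the exponential CHO-S cultures it had 439, 447 and 449. All 3 values in A1 were under the lowest of A0, and CHO-S lay above A1 and near the lowest A0 culture. At stationary phase Nolc1 had 347, 335, 324 and 369 CPM in A0, 266, 317 and 297 in A1, and 316, 260 and 262 in CHO-S. All of these were lower than in the same line at exponential phase. Nolc1 was thus 1.31-fold lower in A1 than in A0 at exponential phase (log2 fold change -0.39 ± 0.094, SE) and 1.18-fold lower at stationary phase (-0.24 ± 0.075, SE). The adjusted p-values were 0.0065 and 0.023 (quasi-likelihood test of edgeR, Benjamini-Hochberg over all genes), and this difference was part of how the list was chosen. The exponential call is lost without A1 culture 3 (-0.35, adjusted p = 0.056 by edgeR). The stationary call is lost without culture 4 of A0 (-0.20, 0.054) or without culture 1 (-0.17, 0.12) or 3 (-0.25, 0.061) of A1, with the replicate number as a block (-0.21, 0.059), with library size alone (-0.18, 0.073) and with all 6 groups in 1 fit (-0.23, 0.13).

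The other nucleolar genes did not follow Nolc1 as a group at exponential phase. Of the 39 genes other than Nolc1, 4 were lower and 5 were higher in A1 than in A0, where 25.9% of all 19946 genes tested passed the same threshold (adjusted p-value under 0.05 in edgeR). That is 10.3% lower and 12.8% higher, against 13.8% and 12% of all genes. Of the 10579 genes with a mean of at least 5 CPM, 19.5% were lower and 18.2% higher. With Nolc1, 5 of the 40 were lower. The median log2 fold change of the 39 was -0.021, as against -0.04 over all genes and -0.0072 over the 10579 genes with a mean of at least 5 CPM. The values of the members ran from -0.45 to 0.99, so no member differed by 2-fold. The cultures of both clones were apart, with no overlap, for 10 of the 39 genes, or 25.6%. This compares with 34.4% of all genes and 46.4% of those with at least 5 CPM.

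**Figure D2:**
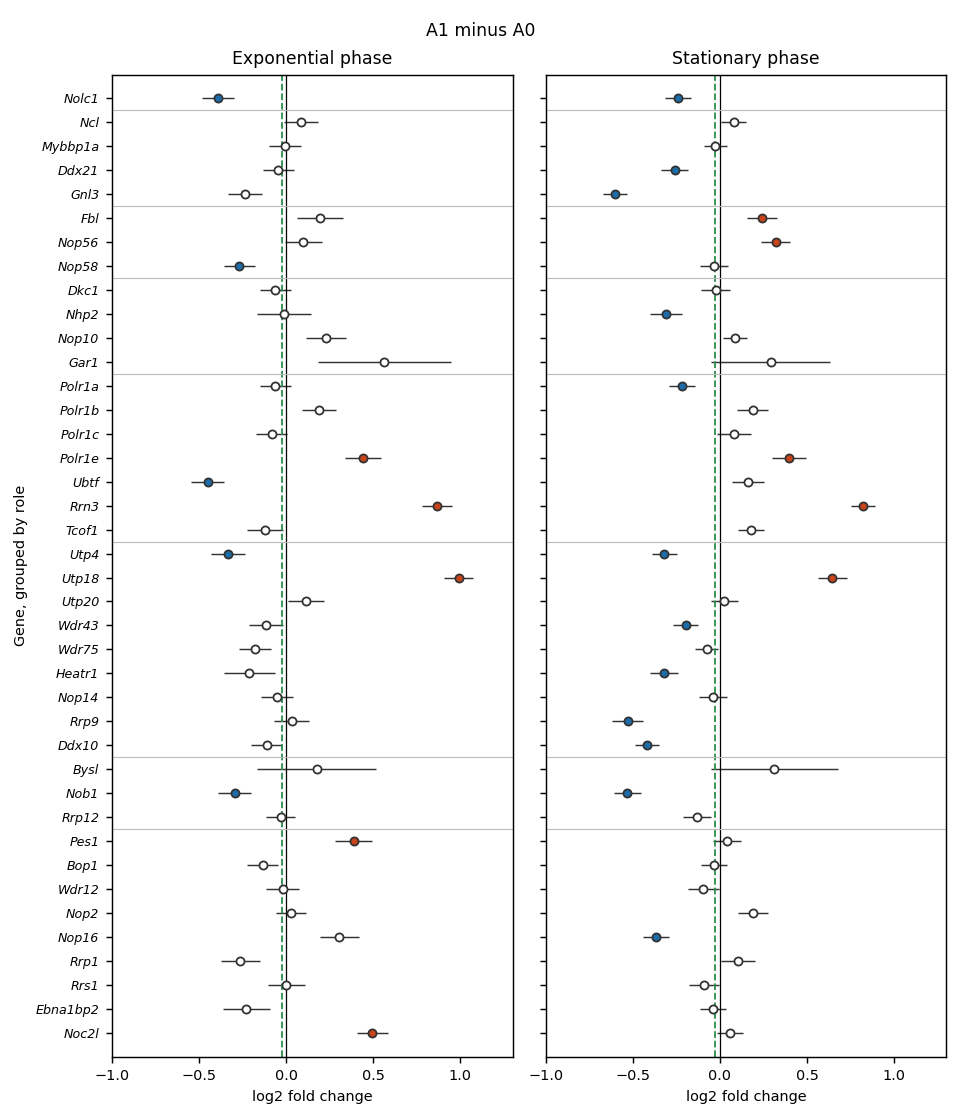
Log2 fold change of A1 against A0 for each of the 40 nucleolar genes at exponential and at stationary phase, grouped by role, with bars of 1 standard error. Filled points are past an adjusted p of 0.05 and the dashed green line is the members' median, which lies at -0.03 at both phases, while Rrn3 and Utp18 stand furthest to the right.

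Ubtf, the factor that binds ribosomal DNA and opens it for RNA polymerase I, had the largest fall. It had 253, 274, 310 and 255 CPM in exponential A0 and 199, 208 and 192 in exponential A1, which is 1.37-fold lower (log2 fold change -0.45 ± 0.094, SE, adjusted p = 0.0024 in edgeR). The groups did not overlap. Rrn3, which brings the polymerase to the promoter, went the other way. Its level was 122, 116, 109 and 109 CPM in A0 against 199, 220 and 205 in A1, which is 1.82-fold higher (log2 fold change 0.87 ± 0.087, SE, adjusted p = 5.0e-06). Polr1e, a subunit of RNA polymerase I, was also higher, by 0.44 on the log2 scale, whereas the largest subunit Polr1a had -0.06 and did not pass. The 7 measured genes of RNA polymerase I transcription thus held 2 that rose and 1 that fell.

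The genes of the small subunit were as mixed. Utp18, a protein of the small subunit processome, had the largest change of all members. It had 72.5, 72.7, 74.0 and 80.0 CPM in exponential A0, and 147, 156 and 143 in exponential A1. The highest A0 culture lay far below the lowest A1 culture, and the level was 1.99-fold higher in A1 (log2 fold change 0.99 ± 0.084, SE, adjusted p = 9.0e-07 in edgeR). Utp4, another protein of the same assembly, was lower at -0.33 (adjusted p = 0.018). So was Nob1, the nuclease that makes the last cut of the small subunit's RNA, at -0.29 (adjusted p = 0.031 in edgeR). Scaled as separate libraries, Nob1 had 106.3, 99.1, 106.5 and 114.9 CPM in the first libraries of A0 cultures 1 to 4. The RLT libraries had 162.3 and 129.9 and the Duplicate libraries 112.5 and 125.1. The A1 cultures had 96.5 to 100.9.

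Among the genes of the large subunit, Noc2l and Pes1 were higher in A1, by 0.49 and 0.39 on the log2 scale (adjusted p = 0.00083 and 0.014 from edgeR), and none was lower. Pes1 forms a complex with Bop1 and Wdr12, neither of which passed. Among the proteins of the box C/D particles, which methylate ribosomal RNA, Nop58 fell by 0.27 on the log2 scale (adjusted p = 0.039). Nop56 and the methyltransferase Fbl did not pass. No gene of the box H/ACA particles, which make pseudouridine, passed, with -0.06 for their enzyme Dkc1, nor did the abundant nucleolar protein Ncl (0.09).

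Calls close to the threshold depended on single cultures. The 5 lower members became 1 without A1 culture 3 (Ubtf), 2 without A1 culture 1, 3 without A1 culture 2 or A0 culture 2, and 8 without A0 culture 4, and the 5 higher members became 3 without A1 culture 2. Nob1 and Pes1 lost their calls without any of the A1 cultures and Nob1 also without A0 culture 1. Nop58 kept its call only without A0 culture 1 or 4. Utp4 lost its call without A0 culture 2 or A1 culture 1 or 3, and Polr1e without A1 culture 2. The adjusted p-values (edgeR) after these losses ran from 0.052 for Pes1 to 0.20 for Nop58. With all 6 groups in 1 fit 2 were lower, Ubtf and Nolc1. Ubtf, Noc2l, Rrn3 and Utp18 kept their calls under every alternative run. Exponential A0 cultures 1 and 2 also differed from cultures 3 and 4 in some members. Fbl had 475 and 446 CPM in the former and 347 and 303 in the latter, and Heatr1 had 248 and 277 against 402 and 400. Against cultures 1 and 2 alone 8 members were higher and 11 lower in A1, and against cultures 3 and 4 alone 6 were higher and 5 lower. Fbl itself was at -0.04 and 0.47 on the log2 scale (adjusted p = 0.64 and 0.0035 from edgeR) in these comparisons. The RLT libraries belong to cultures 1 and 2 and the Duplicate libraries to cultures 3 and 4. Scaled as separate libraries, Ncl had 1528 CPM in the first and 1087 in the RLT library of culture 1. In culture 3 it had 1560 in the first and 1612 in the Duplicate library. The part of the kind of library in these values was not tested.

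At stationary phase 11 of the 39 members other than Nolc1 were lower and 5 were higher in A1 than in A0, with 33.7% of all 19293 genes tested past the threshold. With Nolc1, 12 of the 40 were lower. The share of the 39 that was lower was 28.2%, against 17.7% of all genes and 24.2% of the 10572 genes with a mean of at least 5 CPM. The share higher was 12.8%, against 16% of all genes and 23.2% of those with at least 5 CPM. The median of the 39 was -0.026, and 18 of their values lay above 0. The cultures of both clones were apart for 14 of the 39 genes, or 35.9%. This compares with 39.9% of all genes and 54.1% of those with at least 5 CPM.

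Gnl3 (nucleostemin, a nucleolar GTPase) fell the most. It had 215, 215, 191 and 206 CPM in stationary A0 and 139, 135 and 138 in stationary A1, which is 1.52-fold lower (log2 fold change -0.60 ± 0.070, SE, adjusted p = 1.8e-05 in edgeR). Rrp9, the protein that is specific to the U3 particle of the small subunit processome, had 121, 106, 99.9 and 118 CPM in A0 and 70.0, 81.1 and 81.6 in A1 (-0.53, adjusted p = 0.00032). Nob1 had 149, 132, 124 and 129 CPM against 89.4, 99.2 and 90.1 (-0.53, adjusted p = 0.00014). None of these 3 genes had an A1 culture that reached the lowest A0 culture.

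Of the 9 genes of the small subunit processome, 5 were lower at stationary phase, or 55.6%. This compares with 17.7% of all genes and 24.2% of those with at least 5 CPM. Outside the members, 10 of 44 further genes of the processome and the 40S subunit were lower (22.7%). Of 48 further genes of 60S assembly and export, 18 were lower (37.5%). Besides Rrp9 the 5 members were Ddx10 (-0.42), Heatr1 (-0.32), Utp4 (-0.32) and Wdr43 (-0.20). Utp18 was again higher at 0.65. The remaining falls were spread over the roles, with Nop16 of the large subunit at -0.37, Nhp2 of the box H/ACA particles at -0.31, the helicase Ddx21 at -0.26, Nolc1 at -0.24 and Polr1a at -0.22. Their adjusted p-values in edgeR ran from 0.0003 for Ddx10 to 0.049 for Wdr43. Besides Utp18, the genes that rose were Rrn3 (0.82), Polr1e (0.39), Nop56 (0.32) and Fbl (0.24). For Fbl and Ddx21 the cultures of A0 and A1 overlapped. Ubtf, lower in A1 at exponential phase, had 131, 122, 134 and 153 CPM in A0 and 139, 171 and 146 in A1 (log2 fold change 0.16) and did not pass. Ncl (0.08), Dkc1 (-0.03) and Pes1 (0.07) did not pass either.

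The stationary count of lower members was 7 without A1 culture 1, 4 with all 6 groups in 1 fit and 7 with library size alone, where the median of the members turned to 0.03. Without A1 culture 2 the higher members were 3. Wdr43 lost its call without any of 6 of the 7 cultures, Polr1a without any of 5, Fbl without any of 4, Nhp2 without any of 3, Ddx21 without A1 culture 1 or 3, and Nop56 without A1 culture 2. Gnl3, Nob1, Rrp9 and Nop16 kept theirs under every alternative run, as did Rrn3, Utp18 and Polr1e among the higher members.

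Besides Nolc1, for which the list was drawn up, Nob1 and Utp4 were lower in A1 at both phases. These are 2 of the other 39 members, or 5.13%, against 8.63% of the 18706 genes tested at both phases. Rrn3, Utp18 and Polr1e were higher at both, 3 of the 39 or 7.69%, against 6.97% of the genes. The shares among genes with at least 5 CPM were not computed for these overlaps.

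**Figure D3:**
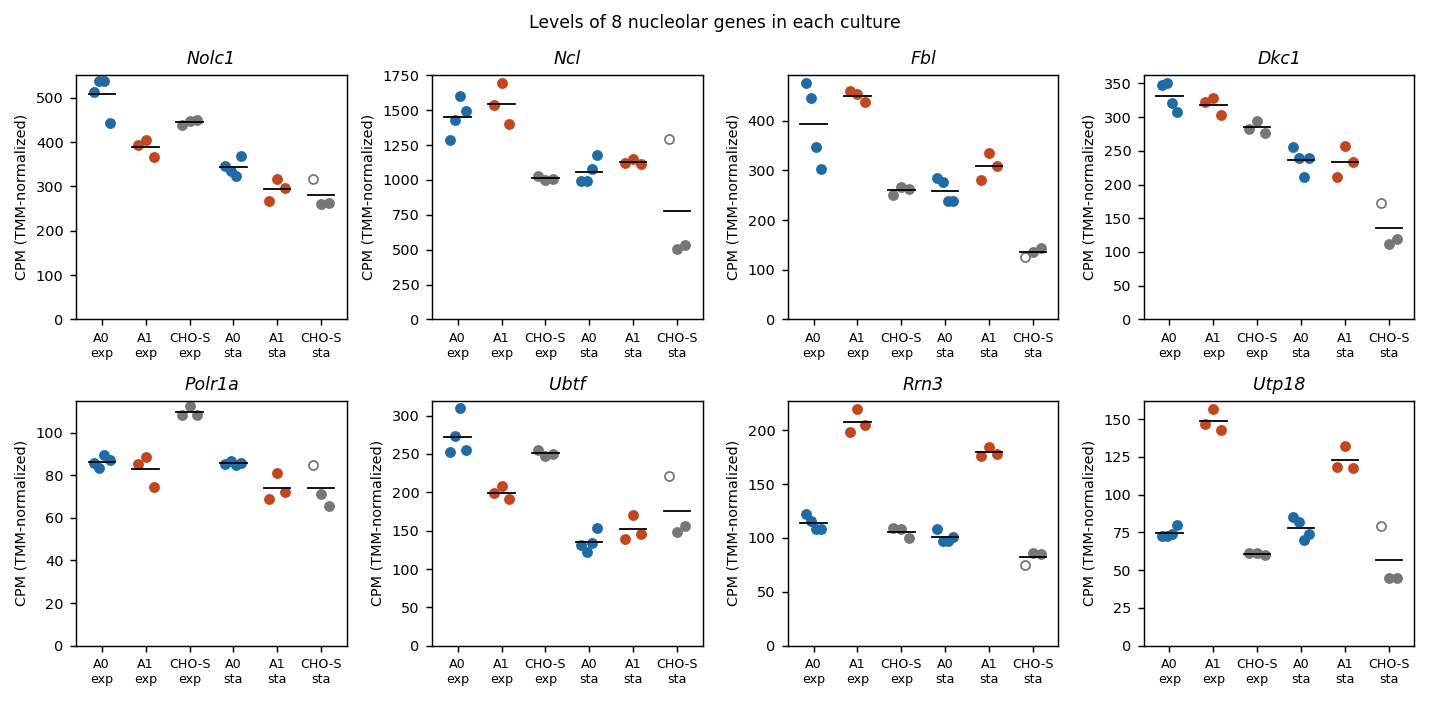
CPM (TMM-normalized) of 8 nucleolar genes in each culture by line and phase, with the group mean as a line and stationary culture 1 of CHO-S as an open circle. Nolc1 is lower in A1 (367 to 405 CPM) than in A0 (444 to 538) at exponential phase, while Rrn3 and Utp18 are higher in A1 than in A0 and CHO-S at both phases.

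The difference between A1 and A0 itself changed with the phase in 4 members (edgeR over the 4 groups of A0 and A1), where 8.94% of 20953 genes passed. The change was upwards in 1 member (5.04% of the genes) and downwards in 3 (3.9%). Among genes with at least 5 CPM it was upwards in 8.84% and downwards in 6.94%. With the culture numbers as a block within each line, an alternative chosen after seeing the data, it was upwards in 2 and downwards in 5, and 3435 genes passed in place of 1873. Ubtf moved by 0.61 ± 0.13 (SE) on the log2 scale, with an adjusted p of 0.0048, from lower in A1 at exponential phase to the value of 0.16 at stationary phase. Nop16 moved by -0.67 (adjusted p = 0.0032), Rrp9 by -0.56 (0.012) and Noc2l by -0.44 (0.021). Nop16 had 38.8, 37.0, 32.7 and 45.2 CPM in exponential A0 and 59.1, 59.6, 61.9 and 65.7 in stationary A0, but 45.6 to 49.2 in all 6 A1 cultures. Rrp9 was similar, with 66.3 to 82.7 CPM in exponential A0, 99.9 to 121 in stationary A0 and 70.0 to 81.6 over both phases of A1. In A0 these genes were higher at stationary phase, and in A1 they were not past the threshold. For Nolc1 the change was 0.15 ± 0.12 (SE), with an adjusted p of 0.53, and it did not pass. Without A0 exponential culture 4, 3 members changed upwards and 7 downwards, and without A0 stationary culture 3, 5 changed downwards. The call of Noc2l was lost without A1 exponential culture 1 (-0.43, adjusted p = 0.053) or 2 (-0.36, 0.097), or A1 stationary culture 2 (-0.45, 0.054) or 3 (-0.40, 0.071).

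More members passed the threshold between the growth phases than between A1 and A0. In A0, 19 of the 40 members were lower at stationary than at exponential phase and 6 were higher, with 37.7% of all 20267 genes tested past the threshold (17.7% higher). The share lower was 47.5%, against 20.1% of all genes and 32.4% of those with at least 5 CPM. In A1, 26 were lower and 1 was higher, with 33.4% of all 18548 genes past the threshold (15.6% higher), and the share lower was 65% against 17.8% of all genes and 29.6% of those with at least 5 CPM. The medians of the members were -0.22 in A0 and -0.26 in A1, where the genes with at least 5 CPM had -0.086 and -0.044. The exponential and stationary cultures were apart for 24 members in A0, or 60%, against 35.8% of all genes, and for 29 in A1, or 72.5%, against 43.1%. Of the genes with at least 5 CPM, 51.7% were apart in A0 and 59.7% in A1. The summed level of the 40 genes was 8556 ± 315 CPM (SD, n = 4) in exponential A0 and 6683 ± 269 (SD, n = 4) in stationary A0. In A1 it went from 8442 ± 488 (SD, n = 3) to 6626 ± 280.3 (SD, n = 3). These sums rest mostly on the few genes with the most reads, such as Ncl.

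**Figure D4:**
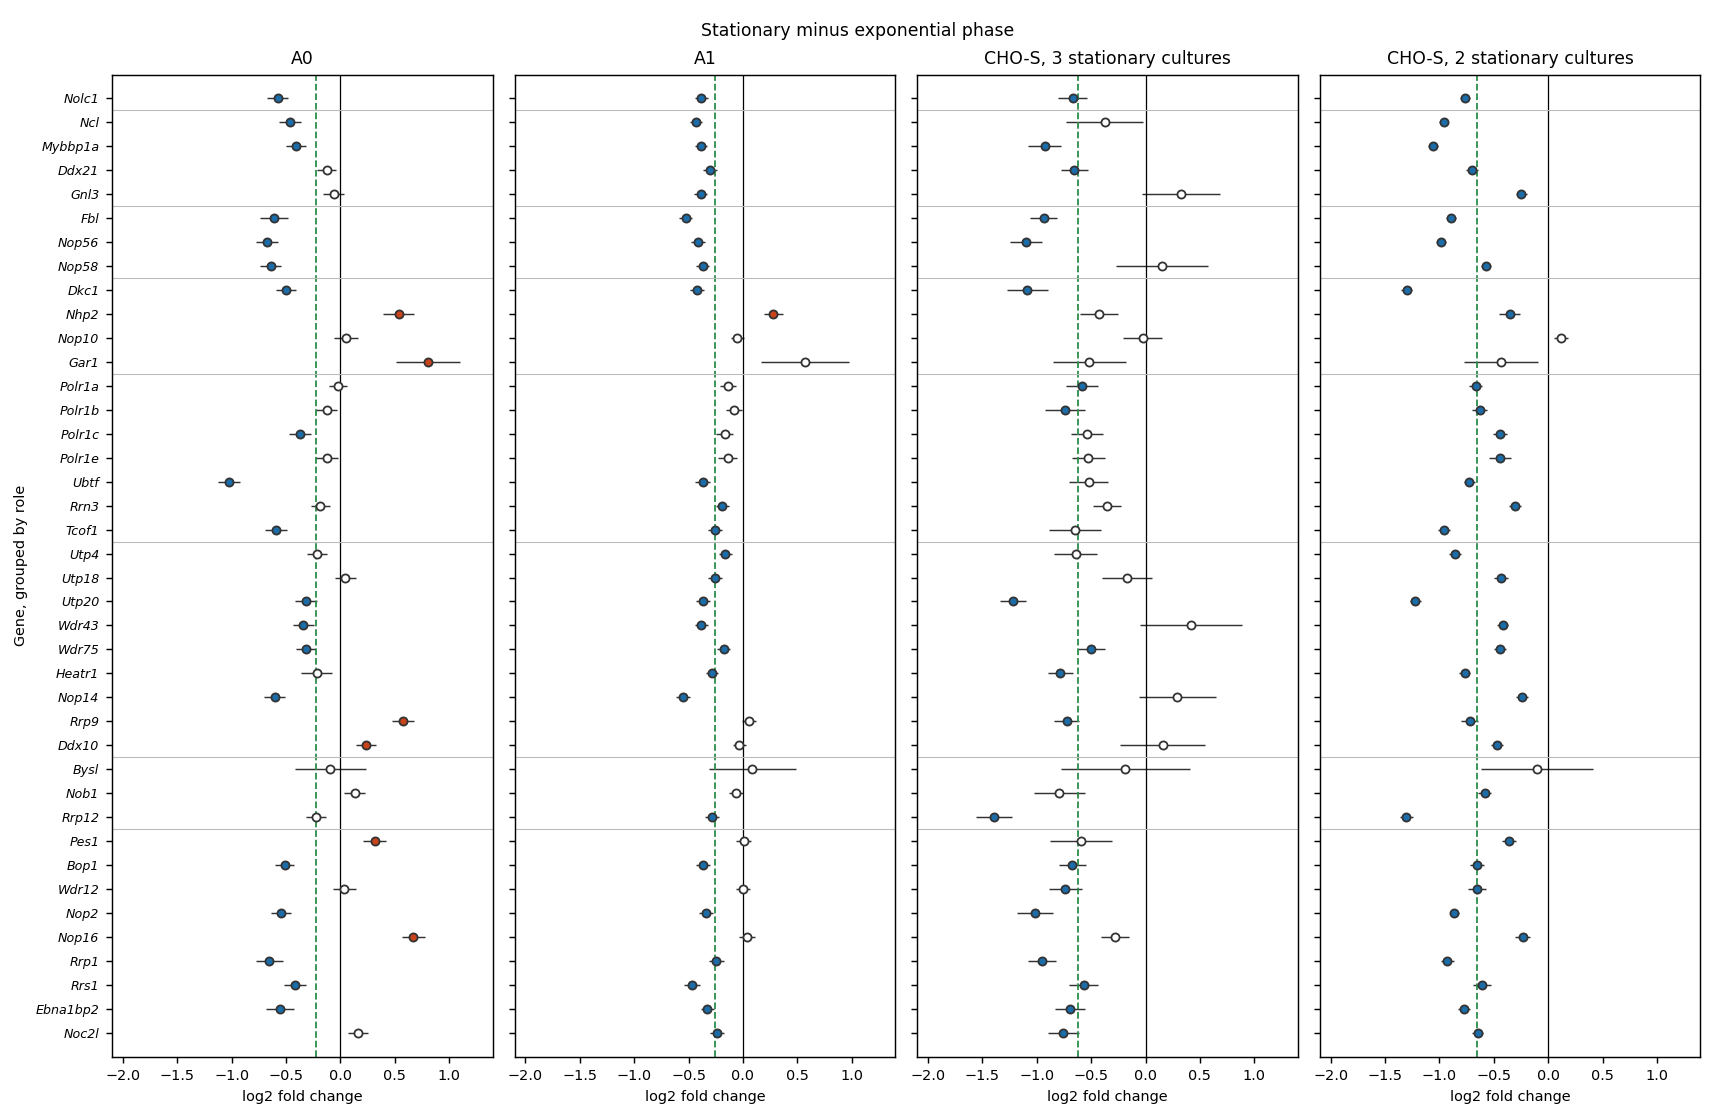
Log2 fold change of stationary against exponential phase for the 40 nucleolar genes in A0, in A1, and in CHO-S with all 3 and with 2 stationary cultures, with bars of 1 standard error. Filled points are past an adjusted p of 0.05 and the dashed line is the members' median, at -0.22, -0.26, -0.62 and -0.65.

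In A0 Ubtf fell the most, by 1.03 on the log2 scale, from 253 to 310 CPM in the exponential to 122 to 153 in the stationary cultures (2.04-fold lower, adjusted p = 1.1e-06 from edgeR). All 3 box C/D proteins fell, Nop56 by 0.67, Nop58 by 0.64 and Fbl by 0.61. Rrp1 and Ebna1bp2 of the large subunit, Nop14 of the small subunit processome and Tcof1 (treacle, a cofactor of RNA polymerase I) fell by 0.65, 0.56, 0.60 and 0.60. Nolc1 fell by 0.58, Dkc1 by 0.50 and Ncl by 0.47. Polr1a was at -0.02 with 83.3 to 89.3 CPM before and 85.0 to 86.6 after, and did not pass.

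The 6 members that were higher in stationary A0 were Gar1 (0.80), Nop16 (0.67), Rrp9 (0.58), Nhp2 (0.54), Pes1 (0.32) and Ddx10 (0.24). Gar1 had at most 1.09 CPM in any A0 culture, and its call is lost with the culture number as a block (adjusted p = 0.052) and under DESeq2 (0.075). Blocked in this way Rrp12 joined the lower members (-0.23, adjusted p = 0.042 from edgeR). Ddx10 lost its call without any of 7 of the 8 cultures, Gar1 without any of 6 and Pes1 without any of 5, so that 3 members were left higher without exponential culture 1, 2 or 3 or stationary culture 3.

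In A1 the largest fall was that of Nop14, by 0.55. Fbl fell by 0.53, Rrs1 by 0.47, Ncl by 0.43, Dkc1 by 0.42 and Nop56 by 0.41 on the log2 scale. Fbl had 460, 454 and 437 CPM in the exponential and 280, 336 and 310 in the stationary A1 cultures. Dkc1 had 322, 329 and 304 against 211, 257 and 234, and Ncl had 1534, 1696 and 1402 against 1124, 1148 and 1116. None of these groups overlapped. Nolc1 fell by 0.38 and Ubtf by 0.37. Nhp2, which holds the box H/ACA particle together with Dkc1, was the 1 member that rose (0.28, adjusted p = 0.014 from edgeR), a call lost without exponential culture 3 (0.052) or stationary culture 3 (0.13). Polr1a (-0.14) and Pes1 (0.01) did not pass. With all 6 groups in 1 fit, in which the shallow CHO-S culture also sets the spread, only 8 members were lower in stationary A1, none was higher, and 2470 genes passed in place of 6196.

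In CHO-S 20 of the 40 members were lower at stationary phase and none was higher, with 13.3% of all 17367 genes tested past the threshold (6.48% lower, 6.81% higher). The cultures of both phases were apart for 31 members, or 77.5%, against 36.4% of all genes, and for 38, or 95%, against 61.5% without the shallow culture. Of the genes with at least 5 CPM, 47.5% were apart and 10.1% were lower with all cultures. The median of the members was -0.62. Without the shallow culture 37 were lower and none higher, with 47.7% of 17319 genes past the threshold (24.7% lower, 23.1% higher), and the median was -0.65. The largest falls with all cultures were Rrp12, which takes part in the export of both subunits, by 1.39, Utp20 by 1.22, Nop56 by 1.10, Dkc1 by 1.09, Nop2 by 1.02 and Rrp1 by 0.95 on the log2 scale. Fbl fell by 0.94, Nolc1 by 0.67 and Polr1a by 0.58, and Ncl (-0.38), Ubtf (-0.52) and Pes1 (-0.59) did not pass. Without the shallow culture Rrp12 fell by 1.305, Dkc1 fell by 1.299, Utp20 by 1.22, Mybbp1a by 1.06, Nop56 by 0.99, Ncl by 0.96, Rrp1 by 0.93, Fbl by 0.89, Nop2 by 0.86, Nolc1 by 0.77, Ubtf by 0.72, Polr1a by 0.67 and Pes1 by 0.36. Gar1, Bysl and Nop10 did not pass, and the first of these had 1.97 CPM or less in every CHO-S culture and Bysl 1.07 or less.

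The shallow culture itself had levels unlike its group. Nop58 had 706 CPM in it and 238 and 233 in the other stationary CHO-S cultures, Wdr43 had 541 against 160 and 155, and Gnl3 had 340 against 131 and 138. Pes1 had 18.6 against 50.2 and 51.9. Nolc1 was nearer, with 316 against 260 and 262. The part of its depth in these values was not tested. With another CHO-S culture left out instead, the lower members were 3, 0 and 2 without exponential culture 1, 2 or 3, and 5 and 7 without stationary culture 2 or 3. The count of 0 comes with 0 of all genes past the threshold in edgeR.

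From exponential to stationary phase, 12 of the 40 members fell in A0, A1 and CHO-S alike, against 577 of 16532 genes (3.49%). Without the shallow culture 18 of the 40 did, against 1521 of 16498 genes (9.22%). The shares among genes with at least 5 CPM were not computed for these overlaps. The 12 were Nolc1, Fbl, Nop56, Dkc1, Mybbp1a, Bop1, Nop2, Rrp1, Rrs1, Ebna1bp2, Utp20 and Wdr75. The enzymes of both kinds of small nucleolar RNA particle, Fbl and Dkc1, are thus among them, and 5 of the 9 large subunit genes, and none of the 7 genes of RNA polymerase I transcription. Ubtf and Tcof1 of these 7 joined them without the shallow culture.

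Against CHO-S, more nucleolar genes were higher than lower in both A0 and A1. These lines differ from CHO-S in host, transfection, selection and antibody production at once, and the design cannot tell these apart. At exponential phase 20 members were higher and 9 lower in A0 than in CHO-S, with 49.5% of all 19966 genes past the threshold (27.6% higher, 21.9% lower). In A1 20 were higher and 14 lower, with 57.2% of 18488 genes past it (30% higher, 27.1% lower). The cultures were apart from CHO-S for 31 members in A0, or 77.5%, against 53.8% of all genes, and for 35 in A1, or 87.5%, against 61.9%. Of the genes with at least 5 CPM, 68.8% were apart in A0, with 33.7% higher and 32% lower past the threshold. In A1 79.1% of them were apart, with 37.6% higher and 38.5% lower, against 50% and 35% of the members. The CHO-S cultures enter both comparisons, so the values are given side by side. Mybbp1a, a nucleolar partner of Myb, was 1.05 higher in A0 and 1.03 higher in A1 on the log2 scale. Ebna1bp2 was 1.01 and 0.76 higher, Wdr12 0.92 and 0.89, Rrs1 0.92 and 0.91, Rrp9 0.73 and 0.75, and Fbl 0.61 and 0.79. Ncl was 0.54 and 0.61 higher. Ddx10 was 0.68 higher in A0. In A1 Utp18 (1.28), Rrn3 (0.97) and Polr1e (0.88) were among the 6 largest rises, and in A0 they had 0.31, 0.12 and 0.45, of which the value of Rrn3 did not pass.

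Noc2l was among the genes furthest below CHO-S, at -1.57 in A0 and -1.09 in A1, with 220, 227 and 223 CPM in exponential CHO-S, 69.7 to 79.3 in A0 and 98.2 to 112 in A1. Gar1 was at -1.59 and -1.05, with under 2 CPM throughout. Nop2 (-0.58 and -0.57), Polr1c (-0.38 and -0.47), Polr1a (-0.33 and -0.41) and Pes1 (-0.65 and -0.28) were also lower in both. Nop16 was -0.44 in A0. Ubtf was -0.34 in A1 and did not pass in A0 (0.13). Dkc1 was 0.23 and 0.16 higher. Nolc1 was -0.20 in A1 (adjusted p = 0.00024 from edgeR) and 0.20 in A0, where it did not pass (0.074).

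At stationary phase 20 members were higher and 2 lower in A0 than in CHO-S, with 40% of all 19007 genes past the threshold (20.7% higher, 19.3% lower). In A1 19 were higher and 2 lower, with 34.8% of 18243 past it (18.2% higher, 16.6% lower). The cultures were apart for 26 members in A0, or 65%, against 45.1% of all genes, and for 27 in A1, or 67.5%, against 48.8%. Of the genes with at least 5 CPM, 55.5% were apart in A0, with 23.6% higher and 25.3% lower past the threshold. In A1 59% of them were apart, with 20.6% higher and 20.9% lower. Left with 2 stationary CHO-S cultures, 35 members were apart in each line, or 87.5%, against 63.1% of all genes in A0 and 68.9% in A1. Without the shallow culture 30 members were higher and 4 lower in A0, with 51.8% of genes past the threshold (28% higher, 23.8% lower). In A1 28 were higher and 3 lower, with 57.4% of genes past it (29.9% higher, 27.5% lower). Rrp9 was 2.02 higher in A0 and 1.496 in A1 on the log2 scale, Wdr12 1.69 and 1.61, Mybbp1a 1.56 and 1.54, Ebna1bp2 1.13 and 1.10, and Fbl 0.92 and 1.17. In A0 Nhp2 (1.18) and Nob1 (1.16), and in A1 Polr1e (1.28) and Utp18 (1.16), completed the 6 largest rises. Dkc1 was 0.81 and 0.79 higher. Without the shallow culture Rrp9 was 2.05 higher in A0 and 1.49 in A1, Wdr12 1.63 and 1.503, Mybbp1a 1.72 and 1.66, Ebna1bp2 1.24 and 1.17, Fbl 0.90 and 1.12, and Dkc1 1.05 and 0.99. Nhp2 and Nob1 were then 1.08 and 0.98 higher in A0, and Polr1e and Utp18 1.15 and 1.42 higher in A1. The members that were lower in both were Nop14 (-1.10 and -1.14) and Noc2l (-0.66 and -0.60). Without the shallow culture Nop14 was at -0.54 and -0.61 and Noc2l at -0.73 and -0.71. The calls of Nop14 and Noc2l against A1 were both lost without any of the A1 cultures. Nolc1 was at 0.29 in A0 and 0.05 in A1, past the threshold in neither, and without the shallow culture it was 0.41 higher in A0 (adjusted p = 0.0011 from edgeR) and 0.14 in A1 (0.058). Ncl, Polr1a, Ubtf and Pes1 did not pass in either line, and without the shallow culture Ncl was 1.05 and 1.10 higher and Polr1a 0.34 higher in A0 (adjusted p = 0.0052 from edgeR), while Polr1a in A1 and Ubtf and Pes1 in both did not pass.

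Other genes of the same pathway also went both ways between the clones. Of 121 further ribosome biogenesis genes, which were listed by role and not by how they moved, 21 were higher and 19 lower in A1 at exponential phase, and 16 were higher and 34 lower at stationary phase. These are 17.4% higher and 15.7% lower at exponential phase, against 12% and 13.8% of all genes, and 13.2% and 28.1% at stationary phase, against 16% and 17.7%. Of the genes with at least 5 CPM, 18.2% were higher and 19.5% lower at exponential phase, and 23.2% and 24.2% at stationary phase. The medians were -0.0063 and -0.05. Named after their values were seen, Dis3, the nuclease of the exosome, was 0.85 and 0.83 higher at the 2 phases, and Mphosph6, an exosome cofactor, was -0.90 and -0.89. From exponential to stationary phase 35 of the 121 fell and 11 rose in A0, 64 fell and 6 rose in A1, and 26 fell and none rose in CHO-S (101 and 1 without the shallow culture). The shares lower were 28.9% in A0, 52.9% in A1 and 21.5% in CHO-S (83.5% without the shallow culture), against 20.1%, 17.8% and 6.48% of all genes (24.7%). Of the genes with at least 5 CPM, 32.4% were lower in A0, 29.6% in A1 and 10.1% in CHO-S with all cultures.

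The proteins of the finished ribosome were counted apart. Of 73 cytosolic ribosomal protein genes, 26 were higher and 8 lower in stationary than in exponential A0, and 15 were higher and 9 lower in A1. These are 35.6% and 11% in A0, against 17.7% and 20.1% of all genes. In A1 they are 20.5% and 12.3%, against 15.6% and 17.8% of all genes. Of the genes with at least 5 CPM, 22.3% were higher and 32.4% lower in A0, and 21% and 29.6% in A1. In CHO-S no ribosomal protein gene was higher and 5 were lower (6.85%). This compares with 6.48% of all genes and 10.1% of those with at least 5 CPM. Without the shallow culture 1 was higher and 59 were lower (80.8%, against 24.7%). Between the clones, 12 were higher and 14 lower in A1 at exponential phase (16.4% and 19.2%, against 12% and 13.8% of all genes). Of the genes with at least 5 CPM, 18.2% were higher and 19.5% lower. At stationary phase 6 of the ribosomal protein genes were higher (8.22%, against 16%) and 37 lower (median -0.20). The 37 are 50.7%, against 17.7% of all genes. Of the genes with at least 5 CPM, 23.2% were higher and 24.2% lower at this phase. Many of these genes have near-identical copies in the genome, and reads that fit several places were not counted, so their values are uncertain.

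**Figure D5:**
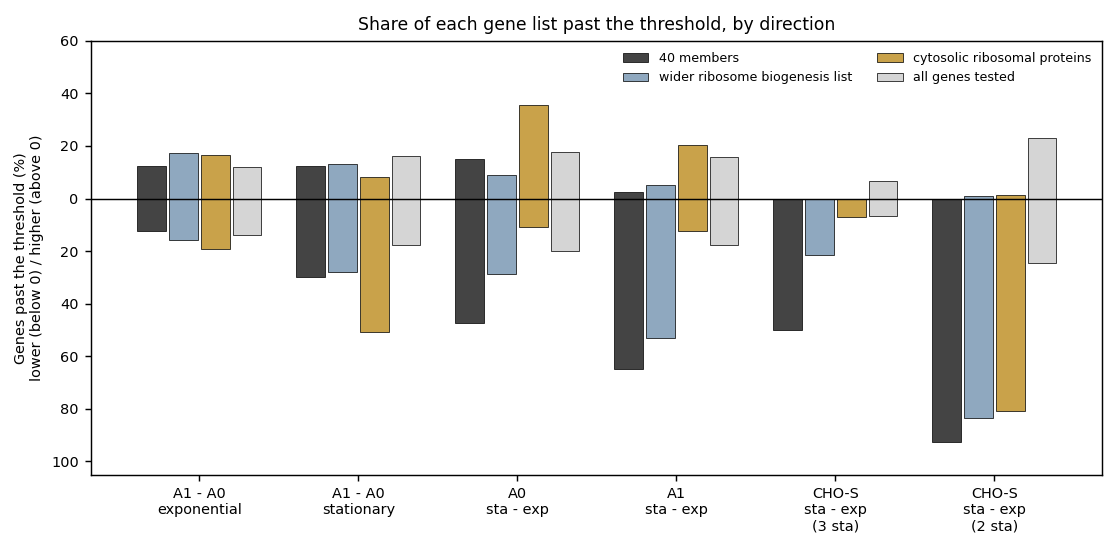
Percent of each gene list that was higher (above 0) or lower (below 0) past an adjusted p of 0.05 in 6 comparisons, for the 40 nucleolar genes, 121 further ribosome biogenesis genes, 73 ribosomal protein genes and all genes tested. The nucleolar genes are lower at stationary phase in 47.5% in A0 and 65% in A1, and, with Nolc1 included, in 12.5% in A1 against A0 at exponential phase.

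Genes of proliferation moved with the phase as well. Of 11 such genes, among them Mki67 and Pcna, 10 fell at stationary phase in A0 and 10 in A1, with medians of -1.45 and -0.69. In each line that is 90.9%, against 20.1% of all genes lower in A0 and 17.8% in A1. In CHO-S 8 fell, or 72.7%, against 6.48% of all genes, and without the shallow culture 11, or 100%, against 24.7%. In A1 against A0, 5 were lower and none higher at exponential phase, or 45.5% lower, against 13.8% of all genes. At stationary phase 6 of these proliferation genes were higher and none lower, or 54.5% higher, against 16% of all genes. Their part in the values of the nucleolar genes was not tested. Myc, the best known activator of ribosome biogenesis genes, was matched by its RefSeq gene number, since its row carries another symbol. The part of Myc in the values of the nucleolar genes was not tested. Myc was 0.98 higher in stationary than in exponential A0 (adjusted p = 4.3e-06 from edgeR) and 0.70 higher in A1 (2.8e-09). In A1 against A0 it was 0.53 higher at exponential phase (0.0037) and at 0.20 at stationary phase (0.081), and in CHO-S its change with the phase was -0.03 (0.96). The shallow culture had 34.1 CPM of Myc against 106 and 104 in the other stationary CHO-S cultures, and without it Myc was 0.28 higher at stationary phase (adjusted p = 1.1e-05 from edgeR).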

How the data were processed

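Messenger RNA libraries (TruSeq Stranded mRNA) of 24 samples were sequenced, and the authors aligned the reads with STAR 2.5.4b and counted them per gene with HTSeq 0.7.2. The deposited values are raw read counts for 28037 genes, and the strand setting of the counting is not given in the sources used here, so overlapping and antisense genes are uncertain. The summary lines of the counter stayed out of library sizes and tests. Reads without a unique place made up 12.7% to 14.8% of a library and reads on no gene 11.9% to 32.8%. Unaligned reads differed by group, with 3.1% to 4.8% in exponential and 6.4% to 9.4% in stationary A0. They were 7.5% to 8.6% in exponential A1, 10.3% to 11.5% in stationary A1 and 2.3% to 3.1% in CHO-S. The part of this in the differences between groups was not tested. The pairs of libraries of each A0 exponential culture were summed. A gene was kept if 2 or more samples had 1 count or more and its variance was above 0, libraries were scaled by TMM, and each pair of groups was fitted with edgeR 4.0.16 (quasi-likelihood test, R 4.3.3, adjusted p under 0.05). The change of the A1 against A0 difference between phases was fitted over their 4 groups. Scripts were tested on simulated data. Alternatives used DESeq2 1.42.0, limma 3.58.1, other scalings, filters and groupings, and each culture left out in turn.

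The members and lists were chosen with earlier results of these data known. In every comparison values are given for Nolc1, Ncl, Fbl, Dkc1, Polr1a, Ubtf, Pes1 and the 6 largest rises and falls past the threshold, in A1 against A0 for every member past it, and for Myc; other lists are given by counts and medians. Nothing in the labels beyond a number says that cultures were grown independently, so p-values measure the spread between these samples, which may be technical. Same-numbered A0 cultures deviated together between phases (correlations of 0.19 to 0.424 for the 4 numbers). Numbers 1 and 2 correlated best with their own number, and numbers 3 and 4 did not. Pairing cannot be told apart here from a difference of cultures 1 and 2 from 3 and 4. The correlations were -0.125 to 0.154 in A1 and -0.00491 to 0.0966 in CHO-S. The main fits left cultures unpaired in every line, and the number entered as a block only in alternatives.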

Additional observations from a re-analysis of the deposited data

Results flagged for a closer look

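The difference between A1 and A0 was not the same at both phases in 4 members by edgeR's quasi-likelihood test of the change itself, on the log2 scale. For Ubtf the change was 0.613, for Nop16 -0.671, for Rrp9 -0.563 and for Noc2l -0.436. Wdr75, a protein of the small subunit processome, had an exponential A0 culture far below the other cultures of the group. In culture 4 it lay apart by 0.912 of the whole range of the group. It was the 1 such case among 80 groups of 4 cultures looked at (40 members in A0 at 2 phases), and chance alone marks about 1 group in 20.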

How the results depend on the processing

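These values rest on 3 or 4 cultures a group, on 1 clone a line and, for stationary CHO-S, on a culture with few reads. Leaving out 1 culture at a time moved the members lower in A1 against A0 between 1 and 8 at exponential phase (higher 3 to 6, genes 3160 to 6015) and between 7 and 11 at stationary phase (higher 3 to 6). The change of that difference ranged over 1003 to 2653 genes, with 1 to 3 members higher and 2 to 7 lower. In stationary against exponential phase, 3 to 6 members were higher in A0, 0 to 1 in A1, and in CHO-S 0 to 37 were lower with 0 to 8269 genes. Against stationary CHO-S the lower members were 1 to 4 in A0, and 0 to 3 in A1 with 4051 to 10451 genes. Values near 0 changed sign in such fits. These were Polr1a in A1 against A0 at exponential phase (-0.119 to 0.00581), Dkc1 at stationary phase (-0.0912 to 0.0433), Pes1 with the phase in A1 (-0.00475 to 0.0195), Nolc1 (-0.023 to 0.144) and Polr1a (-0.112 to 0.086) in A1 against stationary CHO-S, and the change of the difference for Dkc1 (-0.0297 to 0.101), Fbl (-0.0616 to 0.151) and Ncl (-0.0678 to 0.0996).

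With A0 cultures 1 and 2 alone, 8 members were higher and 11 lower at exponential phase and 8 higher at stationary phase, 0 were lower in A0 than in stationary CHO-S, and the difference changed in 4588 genes (5 members higher, 8 lower). Fbl was then at -0.0397 at exponential phase, Pes1 at -0.0168 at stationary phase and Polr1a at 0.0163 with the phase in A0. With cultures 3 and 4 alone, 3 members were higher at stationary phase in A0 and 1 lower against stationary CHO-S. Ncl was at -0.0111 and Dkc1 at 0.0138 at exponential phase, -0.00511 and 0.0554 at stationary phase, and the changes of Ncl and Fbl were 0.00366 and -0.0961. With the first library of each A0 culture alone 9 members were higher at exponential phase, the difference changed downwards in 5, and Polr1a (A0 phase), Ncl and Dkc1 (change) were 0.0455, 0.0636 and -0.0137. The cause was not tested for any of these.

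With all 6 groups in 1 fit 2 members were lower at exponential and 4 at stationary phase, 5 were lower in A1 than in exponential CHO-S, 0 were higher and 8 lower with the phase in A1 (2470 genes), 4107 genes changed with the phase in CHO-S and the difference changed in 973. Pes1 was at -0.00908 (A1 phase) and the change of Ncl at 0.00413. DESeq2 gave 6 members with a downward change, and Polr1a at 0.00472 (A0 phase). With its size factors in edgeR Polr1a was at 0.00471. With limma-voom 1 member was lower in A1 than in stationary CHO-S. With library size alone 7 were lower at stationary phase and 0 in A1 against stationary CHO-S, and Dkc1 (stationary phase), Polr1a (A0 phase) and Ncl (change) were 0.0349, 0.0364 and 0.035. This scaling set the median of genes with at least 5 CPM in A0 and A1 against stationary CHO-S to 0.11 and 0.173, from -0.0021 and 0.012. With filterByExpr Polr1a was 0.0159 (A0 phase) and -0.0364 (A1 against stationary CHO-S) and Ncl 0.00109 (change), and with no filter Ncl was 0.0262.

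With the replicate number as a block 8 members were lower at exponential phase, 7 with the phase in CHO-S (350 genes), 1 in A0 (5043 genes) and 1 in A1 against stationary CHO-S, and the difference changed in 2979 genes. Polr1a in A1 against stationary CHO-S was then -0.000729. Blocked by number, the A0 cultures gave 5 members higher and 20 lower at stationary phase, with only the calls of Gar1 and Rrp12 changed. With the block and the first libraries Polr1a was 0.0479, and a block within each line, both chosen after seeing the data, gave a changed difference in 3435 genes, 2 members higher and 5 lower.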
